A study of Drosophila melanogaster with 5 samples.

Results

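The phototransduction cascade of the fly eye was followed through 10 genes that act downstream of rhodopsin in photoreceptors, and these are Galphaq, norpA, rdgA, trp, trpl, inaC, inaD, ninaC, Arr1 and Arr2. They were chosen by name, from their known place in the pathway, and they account for 39 of the 34111 RefSeq transcripts in the counts. RNA came from 5 vials of wild-type flies of the line Oregon (Oregon-R in the study's methods), each vial giving 1 library of pooled whole adult males, which the labels give as 3 days old. The 3 LB-flies libraries are from flies that developed in a deep underground laboratory under low background radiation, and the 2 NB-flies libraries are from flies that developed at the same time in a ground laboratory under normal background radiation. Both groups were kept in the dark on the same medium, by the study's methods, and no genotype separates them. The radiation background and other conditions of the underground site cannot be told apart in this design. The vials belong to 1 experiment, so that the p-values below measure the spread between vials of that experiment. The question addressed by the comparison is whether the radiation background during development alters gene expression.

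In the microvilli of a fly photoreceptor, light-activated rhodopsin switches on a Gq protein, which activates phospholipase C, and the breakdown of the membrane lipid PIP2 leads to the opening of the TRP and TRPL cation channels. Several of these proteins are held in 1 complex by the scaffold INAD, and eye-specific protein kinase C, a myosin with a kinase domain and the arrestins shut the response down again. Flies that lack one of these proteins are known for weak, transient or prolonged light responses, and some of the mutants lose their photoreceptors with age.

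The libraries held between 23027411 and 26036113 counted reads, and reads that overlapped more than 1 transcript made up between 53.9% and 56.5% of all records and are in no count. At these depths 3 counts correspond to between 0.115 and 0.13 CPM, where CPM is the count scaled to a fixed library size after TMM normalization. Testis genes together reached between 3039 and 4162 CPM in the 5 libraries and the yolk and eggshell genes of females between 4.23 and 6.84 CPM. The photoreceptor genes eys, prom and sev and the rhodopsins were detected in every library, while the defining marker chp had no count in any library. Because reads that overlapped more than 1 transcript are uncounted, a count of 0 is not read as absent expression. Because RNA was taken from whole flies, fewer photoreceptors and less RNA in each of them cannot be told apart in any value below.

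Reads that fit several isoforms of a gene can be among the uncounted ones, so that the exon bases belonging to 1 isoform only were set beside the counts. The counting mode is not given in the sources used here, and Galphaq and ninaC each have counts on 3 transcripts but bases of their own in only 2, so that the match is not exact. In the annotation of dm6, the genome build of the counts, Arr2 (chromosome 3L from 8647261 to 8648936, minus strand) and inaC (chromosome 2R from 16898535 to 16901575, plus strand) have 1 transcript each, so that none of their 1547 and 2351 exon bases is shared between isoforms. Arr1 (chromosome 2L from 18078269 to 18081307) has 3 transcripts and 42.0% of its exon bases belong to only 1 of them, of which 67 are coding and 974 are untranslated. For rdgA (chromosome X from 8907068 to 9029476) this share is 32.5% over 11 transcripts, and for Galphaq (chromosome 2R from 12612740 to 12623197) it is 29.9% over 7 transcripts. Galphaq also shares 3050 exon bases with CG45086 on the same strand, and inaD overlaps RpL23 on the other strand in 7 exon bases.

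The remaining members have almost no sequence of their own in a single transcript. The share is 5.57% for norpA (chromosome X from 4322626 to 4365408) and 3.21% for trpl (chromosome 2R from 9753697 to 9765518), in both cases untranslated bases only. It is 2.40% for ninaC (chromosome 2L from 7377702 to 7384344), again without a coding base. For inaD (chromosome 2R from 22855688 to 22858794) it is 1.54% or 36 bases, which are coding, and for trp (chromosome 3R from 29914521 to 29920289) it is 0.482% or 20 bases. Low counts of these genes are therefore not read as low expression, and their fold changes may describe a short stretch of 1 isoform.

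**Figure D1:**
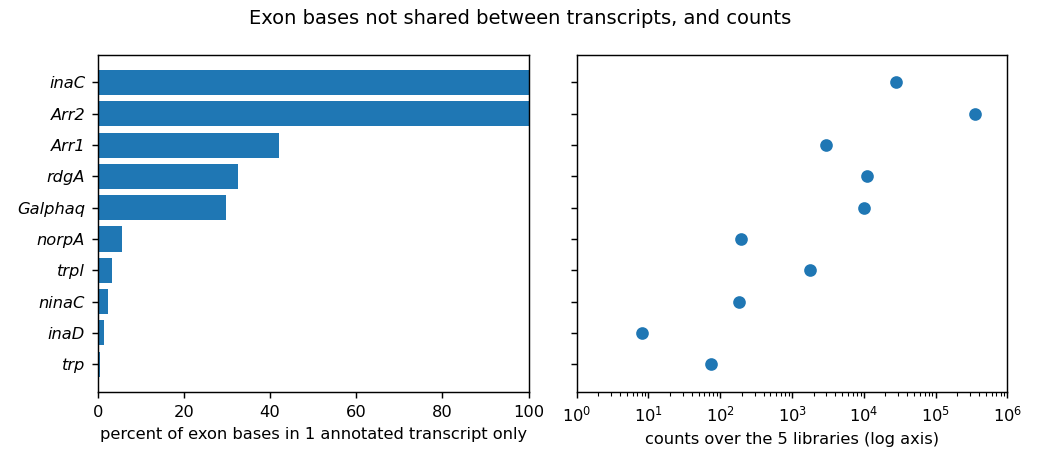
The left panel gives, for each of the 10 members, the percent of annotated exon bases that lie in 1 transcript only, and the right panel gives the counts summed over the 5 libraries on a log axis. Arr2 and inaC have all bases in 1 transcript and the highest counts, while inaD, with 1.54%, has 8 counts in all.

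Of the 39 member transcripts 20 had no count in any library, 19 had a count and 17, from 9 of the 10 genes, reached 10 counts summed over the libraries and were tested. The member without a tested transcript is inaD, the PDZ scaffold of the complex, with counts of 2 and 0 in NB-flies, beside 2, 1 and 3 in the LB libraries. Arr2 alone holds 86.5% of the 401546 counts on members, and Arr2 and inaC together hold 93.4%.

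At the study's limits, an adjusted p of 0.05 together with a change of 1.5-fold, 0 of the 17 member transcripts were called by the quasi-likelihood test in edgeR, against 0 (0%) of all 17337 transcripts tested. DESeq2 also called 0 of the members, against 76 (0.438%) of all transcripts. It gave no adjusted p to trp, the ninaC transcripts and the least counted tested transcripts of norpA and rdgA, so that these could not be called. The members' adjusted p in edgeR lay between 0.625 and 0.970. Without adjustment 2 of the 17 had a p under 0.05 in edgeR, both lower in LB-flies, and these were inaC and the main transcript of norpA. Among all transcripts 7.57% had such a p and 3.66% had it with a lower level in LB-flies. The count was also 2 in DESeq2 (6.36% of all transcripts) and in limma-voom (8.28%). It was 7 without LB replicate 1, against 11.8% of all transcripts in the same fit, and 0 without LB replicate 2, against 3.78%. It was 1 without NB replicate 1 (5.94% of all transcripts), 2 without NB replicate 2 (2.84%) and 3 without LB replicate 3 (6.66%).

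The direction was mostly toward lower levels in LB-flies. Of the 9 main transcripts, by which the best counted transcript of each gene is meant, 8 were lower in LB-flies and 1, that of trpl, was higher. Over all 17 tested transcripts 12 were lower and 5 were higher, beside 52.6% lower among all transcripts. The median log2 fold change of the 9 main transcripts was -0.39, against -0.02 for all transcripts. It was -0.59 without LB replicate 1 and -0.26 without NB replicate 1. The 3 LB values lay below both NB values for 2 of the 17 transcripts and above both for another 2, against 13.1% and 14.8% of all transcripts and 27.9% in either direction. With 1 library left out at a time this count of 4 became 7 to 11, where fewer libraries had to be separated, and the share of all transcripts became 37.2% to 53.2%.

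Galphaq is the alpha subunit of the Gq protein that rhodopsin activates. Its main transcript (NM_165924.2) had 49.8 and 46.7 CPM in NB-flies and 46.9, 35.8 and 38.7 CPM in LB-flies. LB replicate 1 lay between the NB values and the other LB libraries lay below them. For this transcript the log2 fold change was -0.25 (SE 0.15, edgeR adjusted p = 0.676), with a 95% interval from -0.62 to 0.12. A second transcript of the gene had 40.4 and 42.4 CPM in NB-flies and 41.6, 32.2 and 24.2 CPM in LB-flies, so that here too only LB replicate 1 was at the NB level. The third, with between 49 and 92 counts in a library, had a log2 fold change of 0.38 (SE 0.28, edgeR adjusted p = 0.733). The transcripts of 1 gene thus did not share a direction, although none of them passed the test.

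norpA encodes the phospholipase C of the cascade. Its main transcript (NM_001169190.2) had 47 and 41 counts in NB-flies and 26, 21 and 25 counts in LB-flies. These are 1.73 ± 0.227 CPM (SD, n = 2) and 1.0 ± 0.050 CPM (SD, n = 3). Each LB library was below both NB libraries. The log2 fold change was -0.79 (SE 0.25, 95% interval -1.40 to -0.18), and the adjusted p in edgeR was 0.625. The other counted transcript of norpA went the other way, with 7 and 1 counts in NB-flies and 10, 9 and 10 counts in LB-flies. With its transcripts summed, norpA had 54 and 42 counts in the NB libraries, beside 36, 30 and 35 in the LB libraries. Its summed log2 fold change was -0.45 (SE 0.24, edgeR adjusted p = 0.605). The norpA transcripts have only 462 bases, all untranslated, that belong to 1 of them.

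rdgA encodes the diacylglycerol kinase that converts the second product of phospholipase C to phosphatidic acid. Its main transcript (NM_001272438.1) had 92.2 and 84.2 CPM in NB-flies and 90.6, 73.2 and 56.5 CPM in LB-flies. The order within LB-flies was that of Galphaq's second transcript, with LB replicate 1 at the NB level and LB replicate 3 lowest. For rdgA the log2 fold change was -0.26 (SE 0.21, edgeR adjusted p = 0.744) and the 95% interval ran from -0.76 to 0.24. The next 2 transcripts of rdgA had log2 fold changes of -0.56 and -0.44, and the last, with 11 counts in all, was too shallow to compare.

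The channel genes differed in sign. trpl, which encodes the TRP-like channel that moves out of the microvilli in light, had 15.6 and 10.5 CPM in NB-flies and 16.8, 12 and 16.2 CPM in LB-flies. Its groups overlapped, and the log2 fold change of 0.20 (SE 0.25, edgeR adjusted p = 0.842) had a 95% interval from -0.39 to 0.79. Without NB replicate 2 it was -0.07, so that the sign of trpl depended on 1 library. trp, the main channel of the light response, had 13 and 23 counts in NB-flies and 17, 9 and 12 counts in LB-flies. A difference in trp was not detectable at this depth, with a log2 fold change of -0.42 and a 95% interval from -1.41 to 0.57.

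inaC encodes the eye-specific protein kinase C, which is needed for the response to end and to adapt. Among the main transcripts of the 6 best counted members it was the one whose groups did not overlap. Its levels were 286 and 259 CPM in NB-flies and 222, 163 and 197 CPM in LB-flies, from between 3594 and 7102 counts. All LB libraries were below both NB libraries. The means were 273 ± 19.0 CPM (SD, n = 2) and 194 ± 29.5 CPM (SD, n = 3), or 0.712 times the NB level. The log2 fold change of inaC was -0.49 (SE 0.16, 95% interval -0.88 to -0.10), with an adjusted p of 0.625 in edgeR and 0.50 in DESeq2. With 1 library left out at a time its log2 fold change stayed between -0.59 and -0.40. The separation of the other members depended on the processing. With the transcripts of each gene summed before scaling, the LB libraries of Arr2, Galphaq and rdgA also lay below both NB libraries. In that setting 5 of the 9 tested members had groups apart, against 29.8% of all genes.

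ninaC encodes a myosin with a kinase domain that takes part in the translocation of arrestin. Its 3 counted transcripts had between 1 and 26 counts in a library. The best counted one had 26 and 18 counts in NB-flies and 16, 17 and 8 counts in LB-flies. The next had 13 and 9 counts in NB-flies and 19, 15 and 18 counts in LB-flies. Their directions were opposite, at -0.60 (SE 0.44, edgeR adjusted p = 0.732) for the first and 0.73 (SE 0.37, edgeR adjusted p = 0.635) for the other on the log2 scale. With the transcripts summed ninaC had 43 and 33 counts in the NB libraries, beside 41, 33 and 35 in the LB libraries, and the log2 fold change was -0.01 (SE 0.25).

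Arr2, the major arrestin, binds activated rhodopsin and ends its signalling, and it was the most strongly counted member. Its levels were 3448 and 3084 CPM in NB-flies and 3144, 2152 and 2176 CPM in LB-flies. LB replicate 1 lay within the range of NB-flies, and the other LB libraries lay clearly below it. The means were 3266 ± 257 CPM (SD, n = 2) and 2491 ± 566 CPM (SD, n = 3). This gave a log2 fold change of -0.39 (SE 0.21, edgeR adjusted p = 0.646, 95% interval -0.90 to 0.11). With 47368 counts or more in each library, counting error is small beside the difference between the LB vials. Without LB replicate 1 the log2 fold change of Arr2 was -0.59 (edgeR adjusted p = 0.420), and with any other library left out it lay between -0.48 and -0.30. With the transcripts of each gene summed before scaling, Arr2 had 3986 and 3607 CPM in NB-flies, and LB replicate 1 was just below both at 3513 CPM.

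Arr1, the minor arrestin, which is needed for the internalization of rhodopsin, showed the split within LB-flies most widely. It had 24.9 and 24.2 CPM in NB-flies and 33.4, 17.6 and 17.4 CPM in LB-flies. LB replicate 1 was above both NB libraries and the other LB libraries were below them, so that the LB mean of 22.8 ± 9.18 CPM (SD, n = 3) differed little from the NB mean of 24.5 ± 0.512 CPM (SD, n = 2). The log2 fold change of Arr1 was -0.10 (SE 0.31, edgeR adjusted p = 0.942, 95% interval -0.86 to 0.65). It was 0.03 without LB replicate 2, 0.05 without LB replicate 3 and -0.48 without LB replicate 1, so that its sign depended on which LB library was kept.

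**Figure D2:**
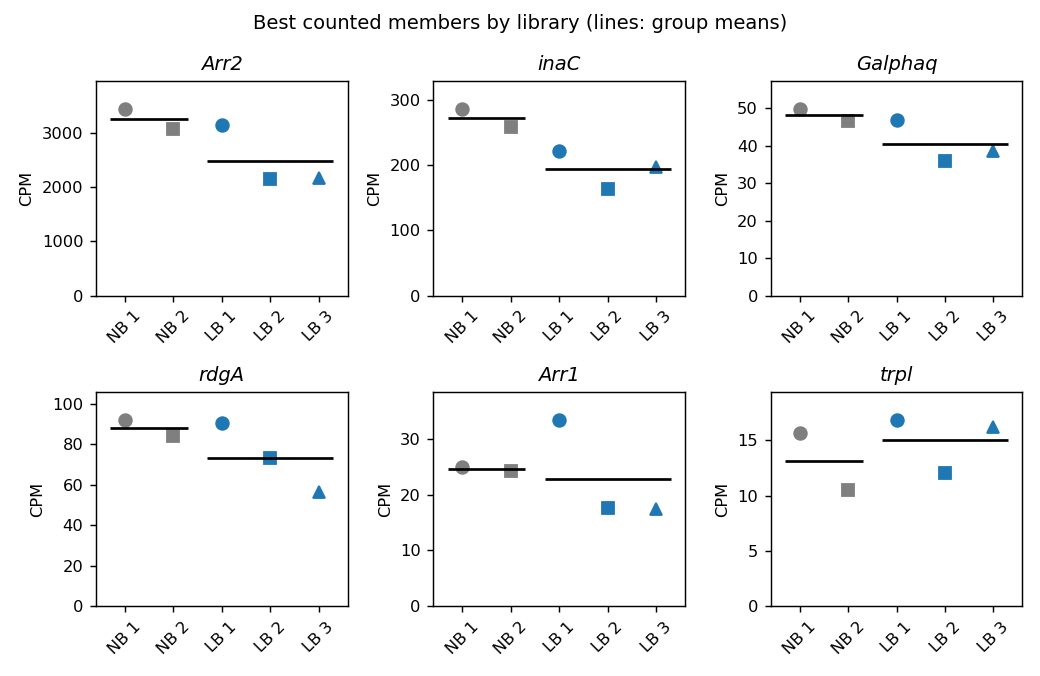
Each panel gives the CPM of the main transcript of 1 of the 6 best counted members in the 2 NB libraries (grey) and the 3 LB libraries (blue), with the axis starting at 0 and horizontal lines at the group means. For inaC all LB libraries lie below both NB libraries, while for Arr2, Galphaq, rdgA and Arr1 LB replicate 1 lies within or above the NB values and the other LB libraries lie below them.

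Only Arr2 and inaC could be compared in level per length, because both have 1 transcript. Per kilobase of exon Arr2 had 2229 and 1994 CPM in NB-flies and 2033, 1391 and 1406 CPM in LB-flies. For inaC the values per kilobase were 122 and 110 CPM in NB-flies and 94.4, 69.5 and 83.9 CPM in LB-flies. The arrestin was therefore 18.3 and 18.1 times as high as the kinase in the NB libraries, beside 21.5, 20 and 16.8 times in the LB libraries, so that the groups overlapped in this ratio.

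Across the members the LB libraries were not alike. The mean of log2(CPM + 0.5) over the 9 main transcripts was 4.74 and 4.6 in NB-flies, and the LB libraries were at 4.62, 4.27 and 4.27. LB replicate 1 was thus between the NB libraries, and LB replicates 2 and 3 were lower by about the same amount. Relative to the NB mean, LB replicate 2 was lower in 9 of 9 main transcripts, LB replicate 3 in 8 of 9 and LB replicate 1 in 6 of 9. The exception in LB replicate 3 was trpl. In LB replicate 1 trpl, Arr1 and rdgA were above the NB mean.

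**Figure D3:**
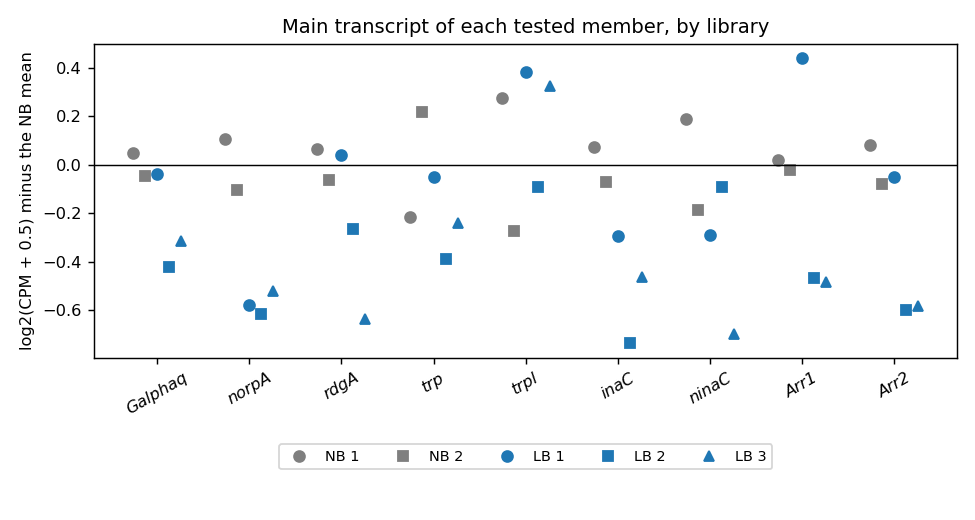
For the main transcript of each of the 9 tested members the vertical axis gives log2(CPM + 0.5) minus the mean of the 2 NB libraries, with NB libraries in grey and LB libraries in blue. LB replicates 2 and 3 lie mostly below 0, LB replicate 1 ranges from -0.58 for norpA to 0.44 for Arr1 and lies near 0 for trp, Arr2, Galphaq and rdgA, and norpA and inaC have all 3 LB libraries below both NB libraries.

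Genes of other tissues also differed between the LB vials, and their part in the values of the members was not tested. Accessory gland genes (6 tested) had a mean log2 level of 7.27 and 7.45 in NB-flies, beside 6.28, 7.99 and 8.08 in the LB libraries. Muscle genes (7 tested) had 7.42 and 7.29 in NB-flies, beside 6.81, 7.35 and 7.57 in the LB libraries. For both lists LB replicate 1 was the lowest library. Testis genes (7 tested) had 6.11 and 5.86 in NB-flies, beside 6.39, 6.18 and 6.17 in the LB libraries, with all 7 higher in LB-flies by their log2 fold change. Of the records, 1.28%, 1.48% and 1.94% in LB replicates 1, 2 and 3 came from reads without a unique place in the genome, against 1.3% and 1.26% in NB-flies.

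Further genes of the cascade were also mostly lower in LB-flies. Of a list of 22, among them the other G protein subunits, lipid transfer and lipid kinase genes, and calcium regulators, 21 were tested. Lower in LB-flies were 18, beside 52.6% of all transcripts, with a median log2 fold change of -0.24. An unadjusted p under 0.05 in edgeR was found for 2, both lower, beside 3.66% of all transcripts, and 0 were called. All LB libraries lay below both NB libraries for 6 genes and above both for 2, beside 13.1% and 14.8% of all transcripts. The mean log2 level was 4.52 and 4.54 in NB-flies, beside 4.55, 4.26 and 4.18 in the LB libraries. CaMKII, a calcium-dependent kinase that phosphorylates arrestin, had 18.0 and 20.5 CPM in NB-flies and 14.9, 11.9 and 14.5 CPM in LB-flies. inaF-B, which is needed for TRP channel function, had a log2 fold change of -0.48 (SE 0.19). rdgB, the phosphatidylinositol transfer protein gene, was above both NB libraries in each LB library, with 15.4 ± 2.59 against 11.2 ± 0.831 CPM (SD, n = 3 and n = 2) and a log2 fold change of 0.46 (SE 0.20). None of these genes passed the test over all transcripts.

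The genes that make and mature rhodopsin were also mostly lower in LB-flies, LB replicate 1 included. Of 8 tested genes for chromophore supply and rhodopsin folding 7 were lower, 6 had all LB libraries below both NB libraries and 5 had an unadjusted p under 0.05 and lower levels, beside 13.1% and 3.66% of all transcripts, while 0 were called. ninaA, the chaperone of rhodopsin, had 95 ± 12.4 CPM in NB-flies (SD, n = 2) against 64.2 ± 6.40 CPM in LB-flies (SD, n = 3). The log2 fold change of ninaA was -0.56 (SE 0.14, edgeR adjusted p = 0.625). santa-maria and ninaB, which supply and cleave carotenoid for the chromophore, stood at log2 fold changes of -0.55 (SE 0.19) for santa-maria and -0.60 (SE 0.21) for ninaB. Unlike in Arr2 and Arr1, LB replicate 1 was below both NB libraries in the mean log2 level of this list, at 3.2 against 3.91 and 3.74. LB replicates 2 and 3 were at 3.23 and 3.46. The low value of LB replicate 1 owed much to ninaD, whose NB libraries held 75.5 and 75.7 CPM, beside 13.52, 33.16 and 50.03 CPM in the LB libraries. For ninaA, Cnx99A and Fatp1 LB replicate 1 was instead the highest LB library, so that the genes did not share an order within LB-flies.

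Of the 7 rhodopsins 1, Rh7, had all LB libraries below both NB libraries, beside 13.1% of all transcripts, and the others overlapped between the groups. ninaE, the rhodopsin of the outer photoreceptors R1 to R6, had 10132 and 9108 CPM in NB-flies and 11876, 9925 and 8483 CPM in LB-flies. Its log2 fold change was 0.07 (SE 0.19, edgeR adjusted p = 0.933), and it was chosen for comparison with the members after its values were seen. The log2 fold change was -0.63 (SE 0.19) for Rh7, -0.38 (SE 0.20) for Rh6 and -0.29 (SE 0.17) for Rh4. Of the 7 rhodopsins 5 were lower in LB-flies, beside 52.6% of all transcripts, with a median of -0.18.

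Other eye genes and neuronal genes were also mostly lower in LB-flies, beside 52.6% lower among all transcripts, without a call. Of 9 tested genes of photoreceptor structure and identity 7 were lower, among them eys, which forms the space between the microvilli stacks (log2 fold change -0.46, SE 0.17), sev (-0.36, SE 0.14) and gl (-0.93, SE 0.53), with a median of -0.28. All 7 genes of the photoreceptor transmitter histamine and its targets had a negative log2 fold change. Balat stood at -0.57 (SE 0.21), CarT at -0.96 (SE 0.55) and Hdc at -1.04 (SE 0.63). The changes of e at -0.14 and ort at -0.05 were small, and their groups overlapped. Depth limits the values of CarT (NB counts 7 and 7, LB counts 4, 4 and 2) and Hdc (NB 11 and 11, LB 4, 2 and 9). The same holds for gl (NB 14 and 9, LB 6, 3 and 8). Of 8 lens and pigment cell genes 6 were lower, with the lens cuticle gene Cpr72Ec at -0.95 (SE 0.31), v at -0.52 (SE 0.24) and st at -0.28 (SE 0.19). The median of this list was only -0.13. Crys at 0.49 (SE 0.35) and w at 0.05 (SE 0.21) were higher, and Cpr66D at -0.11 and bw at -0.08 changed little. Of 13 neuronal genes 12 were lower, with a median log2 fold change of -0.32, and the smallest p-values were those of Appl at -0.76 (SE 0.33), cac at -0.64 (SE 0.30) and brp at -0.50 (SE 0.24). The members, with a median of -0.39, were therefore not alone in their direction among the listed genes of the eye and the nervous system. The lists were drawn by known role, and whole-fly RNA does not show in which tissue each gene was expressed.

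**Figure D4:**
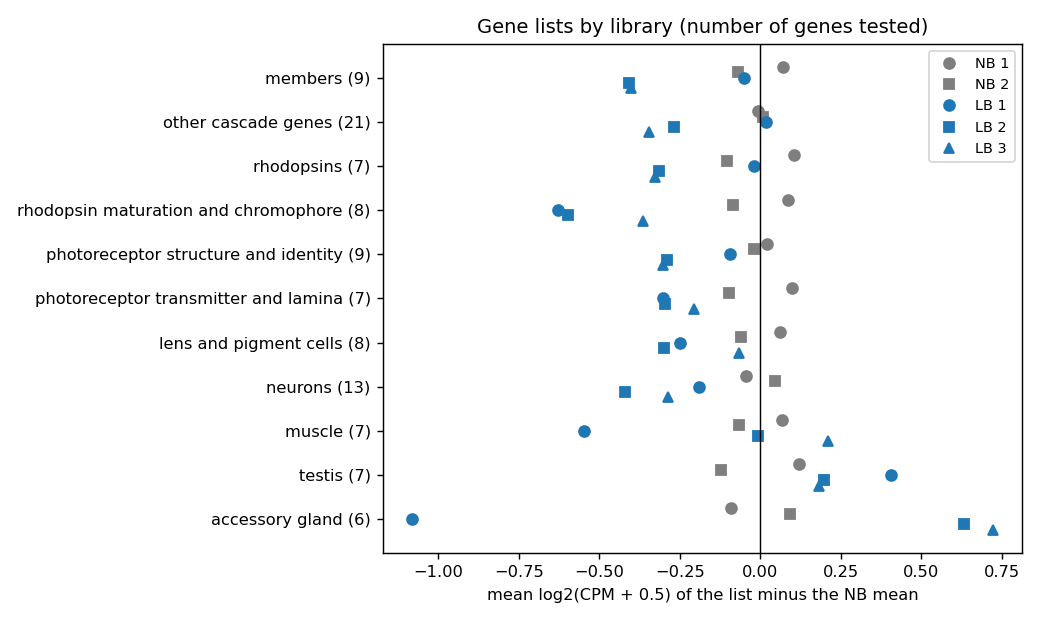
For each gene list, with the number of genes tested in parentheses, the horizontal axis gives the mean log2(CPM + 0.5) in a library minus the mean of the 2 NB libraries. For the members LB replicates 2 and 3 are low and LB replicate 1 is at the NB level, while for accessory gland genes LB replicate 1 is the lowest library and LB replicates 2 and 3 are the highest.

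Measured against the neuronal list, the members did not separate the groups. Their mean log2 level minus that of the neuronal genes was 1.54 and 1.31 in NB-flies, beside 1.57, 1.44 and 1.31 in the LB libraries. Against 10 counted genes of photoreceptor structure and identity the difference was 2.14 and 2.03 in NB-flies, beside 2.12, 1.93 and 1.96 in the LB libraries, with LB-flies lower by 0.09 in the mean. The groups overlapped in both cases.

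Measured against ninaE in the same library, several members did separate them, but this was not particular to the members. Rh2, Rh3, Rh4, Rh6 and Rh7 also had all LB ratios to ninaE below both NB ratios, while Rh5 overlapped. Among neuronal genes the same held for elav, para and Syt1 but not for nSyb. The ratio to ninaE is independent of the scaling of the libraries and was taken after the data were seen, as a description. Arr2 counts were 34.0% and 33.9% of ninaE counts in NB-flies, beside 26.5%, 21.7% and 25.6% in the LB libraries. The NB values lay close together and all LB values, that of LB replicate 1 included, were below them. For inaC the ratio was 2.82% and 2.85% in NB-flies, beside 1.87%, 1.65% and 2.32% in the LB libraries, and for rdgA it was 0.910% and 0.925% in NB-flies, beside 0.763%, 0.737% and 0.666% in the LB libraries. The main transcript of Galphaq stood at 0.492% and 0.513% of ninaE in NB-flies, and the LB libraries stood at 0.395%, 0.361% and 0.456%.

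Of the 9 main transcripts 5, those of Arr2, inaC, rdgA, Galphaq and norpA, had all LB ratios to ninaE below both NB ratios. Over the 17 tested transcripts 6 were lower in this way and 3 were higher, beside 13.7% and 6.14% of all transcripts, or 19.9% in either direction. Arr1, trp, trpl and the main transcript of ninaC overlapped between the groups. With 5 libraries there are 10 divisions into groups of this size, so that an exact permutation test of a single ratio could not give a p below 0.1.

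**Figure D5:**
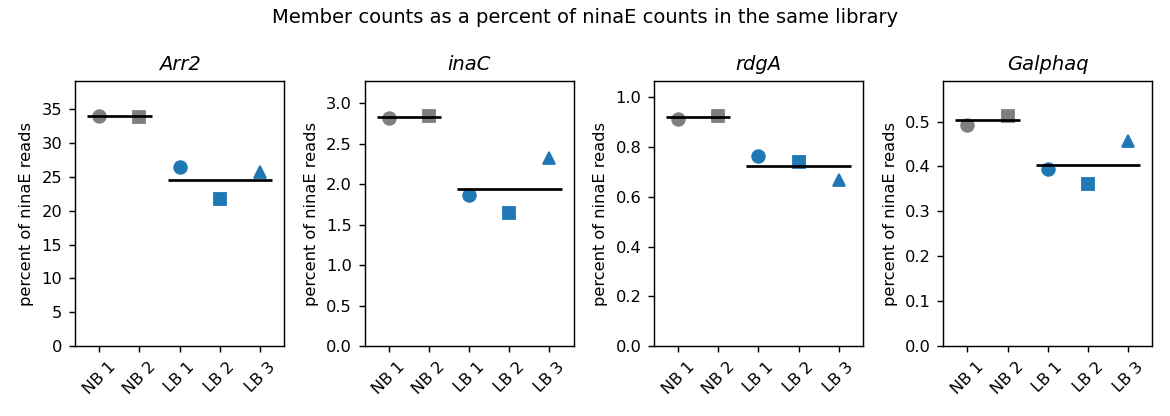
Each panel gives the counts of the main transcript of 1 member as a percent of the counts of ninaE in the same library, for the 2 NB libraries (grey) and the 3 LB libraries (blue), with lines at the group means and the axis starting at 0. In all 4 panels the LB libraries lie below both NB libraries, for Arr2 between 21.7% and 26.5% against 33.9% and 34.0%.

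The genes whose levels followed the members most closely over the 5 libraries were in none of the eye gene lists. Among 6695 genes whose mean log2 CPM reached 3, the smallest root mean square distance from the centred mean profile of the 9 main transcripts was that of CG30089, at 0.026 on the log2 scale. It was followed by Mip, a neuropeptide gene, at 0.030, Ccn at 0.040, grk (gurken), a gene for a TGF-alpha-like ligand, at 0.044 and Lcch3, a ligand-gated chloride channel subunit gene, at 0.044. Mip had 18.7 and 16.8 CPM in NB-flies and 17.6, 13 and 12.8 CPM in LB-flies. The likeness is a description over 5 libraries.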

How the data were processed

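The deposited files give unnormalized read counts per RefSeq transcript, which the authors made with HTSeq after trimming (Trim Galore, cutadapt) and alignment with HISAT2 to the dm6 genome, by the submitters' processing notes. Libraries were made with a stranded mRNA kit. The counting mode and the strand setting are not given in the sources used here. Of the 34111 transcripts, 33753 matched a RefSeq gene table of the same release with their version and 33897 without it. Genes were assigned by the match without version. Exon bases came from an annotation of the same build.

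The 17337 transcripts whose counts over the libraries reached 10 in sum were normalized with TMM and tested, LB against NB, in edgeR 4.0.16 under R 4.3.3 (quasi-likelihood fit), with Benjamini-Hochberg adjustment over all of them. Calling needed an adjusted p of 0.05 and 1.5-fold. Alternatives were DESeq2 1.42.0, limma-voom (limma 3.58.1), other scalings and filters, genes in place of transcripts, other pseudocounts than 0.5, replicate blocks and leaving out each library. Ratios to ninaE and to neuronal genes were chosen after seeing the data.

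The members, the other lists and the naming rule were chosen with earlier results of these data known. Named were all members, up to 3 genes of each other list with the smallest unadjusted edgeR p, and the 5 genes most like the members' mean profile. Any other gene was chosen after its values were seen. Comparisons of proteins and promoters were not run here.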

Additional observations from a re-analysis of the deposited data

How the results depend on the processing

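No member was called in any fit. The count of member transcripts with an unadjusted edgeR p under 0.05 was 2 of 17, against 7.57% of all transcripts. With the transcripts of a gene summed it was 1 of 9, against 7.97% of all genes. It lay between 0 and 7 with 1 LB library left out, where the share of all transcripts lay between 3.78% and 11.8%. The count with groups apart was 4 of 17, against 27.9% of all transcripts, and 5 of 9 with the transcripts of a gene summed, against 29.8% of all genes. It lay between 7 and 11 with 1 library left out and was 9 relative to ninaE. The median log2 fold change, -0.39, lay between -0.59 and -0.26 with 1 library left out and was 0.010 relative to the neuronal list. The difference from photoreceptor structure genes, -0.09, was 0.0098 with transcripts summed and lay between -0.14 and -0.03 with 1 library left out. With 1 library left out trpl lay between -0.067 (without NB replicate 2) and 0.53, and Arr1 between -0.48 and 0.047, with 0.035 without LB replicate 2. The cause was not tested. Same-numbered libraries did not deviate together (r of -0.16 and 0.02 by repeat number, -0.16 and -0.18 by library name). Deviations were taken from the group means, so that those of the 2 NB libraries are exact opposites. The r values are therefore not independent and cannot settle whether the libraries are paired. With the repeat number as a replicate block 2 member transcripts had an unadjusted edgeR p under 0.05, against 4.64% of all transcripts. The median log2 fold change in that fit was -0.32. With the library name number as the block 0 had such a p, against 2.43% of all transcripts, with a median of -0.30. The depth of trp, inaD, norpA and ninaC, under 50 counts a transcript and library, limits what can be detected in them.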
